A study of Rattus norvegicus with 6 samples.

Results

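The homeostatic microglia genes Tmem119, P2ry12, P2ry13, Cx3cr1, Sall1, Gpr34, Olfml3 and Slc2a5 were taken from the deposited gene table by their exact symbols, which gave 8 rows of the 30957 genes listed. These are genes by which resident microglia of the healthy central nervous system are usually told from other cells. They were measured by RNA-seq in spinal cord of female adult Wistar rats on day 14 after surgery. In the bone cancer pain (BCP) group, living Walker 256 cells, a rat mammary carcinoma line, had been placed in the marrow cavity of the left tibia. The sham-operated group had received the same cells after they were killed by heat, so both groups carried the bone puncture and tumour cell material. The tissue was the side of the lumbar enlargement that lay on the side of the surgery, with the meninges stripped off, and each group had 3 libraries. The sources used here do not say whether a library was made from 1 rat or from several, and the p-values measure only the spread between these libraries.

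Microglia are the resident macrophages of the brain and spinal cord. In an undisturbed animal they survey the tissue with moving processes and hold a gene programme that depends on transforming growth factor beta, on colony-stimulating factor 1 receptor signalling and on the transcription factor Sall1. After nerve injury or inflammation microglia multiply and change shape, and parts of that programme are often lowered while genes of phagocytosis and antigen presentation are raised. The 8 genes cover several roles. Cx3cr1, P2ry12, P2ry13 and Gpr34 encode G protein-coupled receptors, Sall1 encodes a zinc finger transcription factor, Slc2a5 a fructose transporter, Tmem119 a membrane protein of resident microglia and Olfml3 a secreted glycoprotein.

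The 6 libraries held between 11779485 and 15004290 gene counts, and 14908 genes passed the filter on low counts and were tested, all 8 homeostatic genes among them. Values are given as CPM, counts scaled to an equal library size after TMM normalization, and a gene is said to have risen or fallen where the adjusted p of edgeR's quasi-likelihood test was under 0.05. The median log2 fold change of all tested genes was -0.014. The tissue label was checked against position genes. Of the 5 Hox genes of cord position that were found, Hoxc10, Hoxd10, Hoxc8 and Hoxc9 had 58 to 1037 counts in each library while Hoxa9 was listed at 0 in all 6. The forebrain gene Neurod6 had 52 to 77 counts in each library. Among further microglial markers, Siglech was listed at 0 counts in all 6 libraries. Of 5 epithelial genes used as carcinoma markers, Krt18 had 4 to 17 counts in sham and 15 to 22 in BCP libraries (log2 fold change 0.82, adjusted p = 0.164), and Krt8, Krt19, Cdh1 and Epcam had at most 13 counts in any library.

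Of the 8 homeostatic genes, 5 rose in BCP rats, none fell and 3 did not pass the test. Cx3cr1, P2ry13, Slc2a5, P2ry12 and Sall1 were higher by 1.34- to 2.67-fold, and in each of these 5 every BCP library lay above every sham library. For all tested genes, the share that rose was 15.8%, the share that fell was 12.1%, and the share whose BCP libraries all lay above the sham libraries was 21.7%. A complete separation in the other direction was seen in 19.8% of tested genes and in none of the 8. Only Cx3cr1 and P2ry13 passed the study's threshold of more than 2-fold, which 6.35% of tested genes passed upward and 0.107% downward. The count of 0 that fell by edgeR was also 0 at an unadjusted p under 0.05 and 0 by DESeq2. The median log2 fold change of the 8 genes was 0.61. In bulk tissue, a change in the number of microglia and a change of the RNA per cell cannot be told apart.

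**Figure D1:**
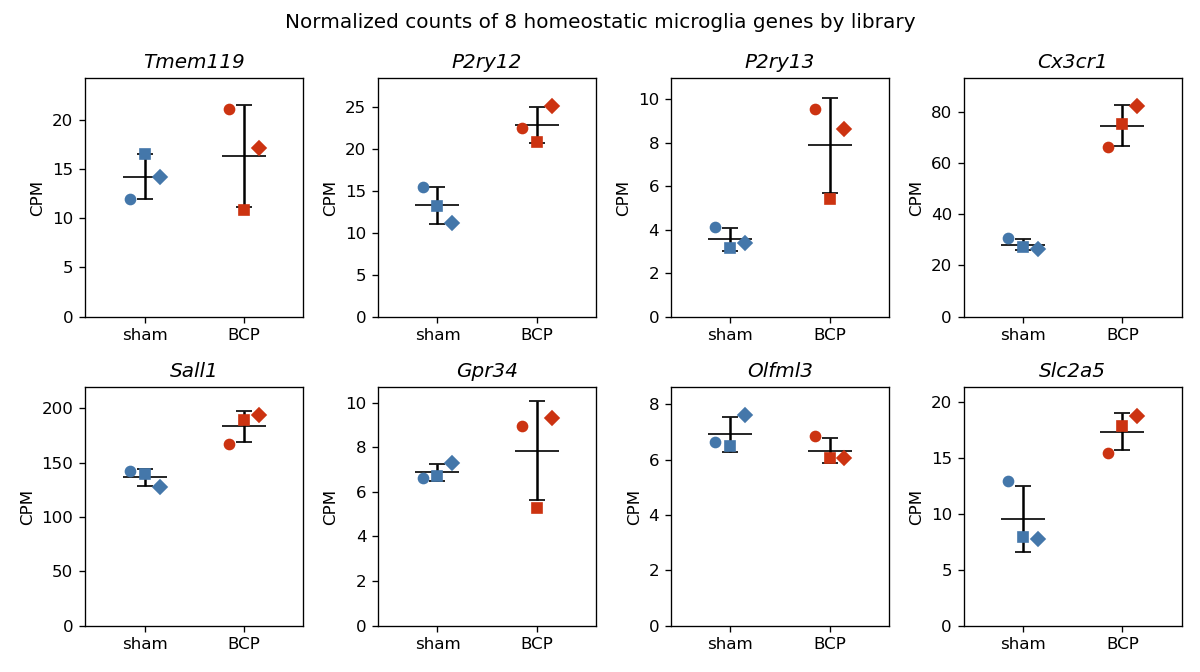
Normalized counts (CPM, each vertical axis from 0) of the 8 genes in the 3 sham and 3 BCP libraries. Circles, squares and diamonds are replicates 1, 2 and 3, the horizontal line is the group mean and the bars are 1 SD; the groups are separated for P2ry12, P2ry13, Cx3cr1, Sall1 and Slc2a5 and overlap for Tmem119, Gpr34 and Olfml3.

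Cx3cr1 encodes the receptor of fractalkine, a chemokine that neurons carry on their surface and release by cleavage. Its level was 30.6, 27.1 and 26.4 CPM in the sham libraries and 66.4, 75.3 and 82.2 CPM in the BCP libraries. All BCP libraries were thus far above all sham libraries. The group means were 28.0 ± 2.22 CPM in sham and 74.6 ± 7.94 CPM in BCP rats (SD, n = 3 each), from 389 to 401 counts per sham library and 786 to 1087 counts per BCP library. The log2 fold change was 1.42 (SE 0.085, 95% confidence interval 1.24 to 1.59), that is 2.67-fold, with an adjusted p of 2.29e-10. The gene (ENSRNOG00000018509) is listed on chromosome 8 at chr8:128740756-128754514 of Rnor_6.0.

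The partners of Cx3cr1 were followed with a list of its ligand and of proteases, in which 3 of 4 genes rose, none fell and the median log2 fold change was 0.28. Adam17 and Adam10, metalloproteases that cleave fractalkine from the neuronal surface, rose by log2 fold changes of 0.32 (adjusted p = 0.000441) and 0.23 (adjusted p = 0.00185). Ctss, cathepsin S, a microglial protease known to release fractalkine, rose by 1.22 on the log2 scale (adjusted p = 0.000278). The ligand gene Cx3cl1 was at 105 ± 5.06 CPM in sham and 111 ± 3.24 CPM in BCP rats (log2 fold change 0.084, adjusted p = 0.274), so the receptor differed clearly between the groups and a difference in the ligand was not detected.

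A promoter sequence was at hand in RefSeq's table for 5 of the 8 genes, P2ry13, Cx3cr1, Gpr34, Olfml3 and Slc2a5. The 250 bases before the start of Cx3cr1 on the minus strand of GRCr8 (chr8:128677067-128677316) are shown for the receptor with the largest change of the 8, and those of P2ry13 (chr2:145622785-145623034, minus strand) and Gpr34 (chrX:11785837-11786086, minus strand) for the pair of receptors of which the one rose and the other did not pass. Each is written 5′ to 3′ on the gene's strand, and capitals mark a motif match.
Cx3cr1: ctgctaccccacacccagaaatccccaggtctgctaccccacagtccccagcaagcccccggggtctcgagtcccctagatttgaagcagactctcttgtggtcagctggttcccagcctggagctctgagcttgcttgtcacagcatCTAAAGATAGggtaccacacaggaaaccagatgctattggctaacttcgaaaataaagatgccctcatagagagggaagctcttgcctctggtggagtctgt
P2ry13: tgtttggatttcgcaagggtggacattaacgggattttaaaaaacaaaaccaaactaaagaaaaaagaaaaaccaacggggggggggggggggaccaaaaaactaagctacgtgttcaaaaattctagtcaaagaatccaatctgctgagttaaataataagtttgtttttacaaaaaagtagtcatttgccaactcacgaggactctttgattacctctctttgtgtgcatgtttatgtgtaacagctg
Gpr34: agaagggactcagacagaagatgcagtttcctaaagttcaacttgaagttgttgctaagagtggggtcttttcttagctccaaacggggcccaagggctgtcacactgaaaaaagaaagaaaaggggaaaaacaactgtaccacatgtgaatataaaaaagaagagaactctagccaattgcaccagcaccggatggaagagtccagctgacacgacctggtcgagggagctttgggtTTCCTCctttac
In Cx3cr1 the capitals mark a match to a loosened MEF2 pattern, CTA and TAG with any 4 bases between them, 102 to 93 bases before the start. The 4 bases here are AAGA, and the match does not show that a full MEF2 site is present. In Gpr34 they mark the PU.1 core GAGGAA on the opposite strand, 12 to 7 bases before the start.

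Both strands of the 5 promoters were searched for 4 patterns of factors known in microglia, and no matches overlapped. The PU.1 core was found in 1 of the 5 and in 23.3% of all 33469 promoters of that table. The loosened MEF2 pattern was found in 1 of the 5 and in 3.41% of all promoters. The composite of PU.1 and IRF sites, GGAA and GAAA with 2 bases between them, was in none of the 5 and in 2.48% of all, and the SMAD palindrome GTCTAGAC was in none of the 5 and in 0.173% of all. The share of G and C was 37.6% in the promoter of P2ry13, 46% in Gpr34, 54% in Cx3cr1, 54.8% in Olfml3 and 50.8% in Slc2a5, where the median of all promoters was 51.2%. A match is a run of letters in this window and does not show binding.

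P2ry12 encodes the ADP receptor through which microglial processes are drawn to injured cells. Its level was 15.5, 13.3 and 11.1 CPM in sham and 22.6, 20.9 and 25.2 CPM in BCP libraries, with no overlap. The means were 13.3 ± 2.16 and 22.9 ± 2.16 CPM (SD, n = 3 each), on 165 to 333 counts per library. The increase was 1.73-fold (log2 fold change 0.79, SE 0.12, 95% confidence interval 0.53 to 1.04, adjusted p = 4.75e-05). P2ry12 (ENSRNOG00000013902) lies at chr2:149441598-149444548 of Rnor_6.0.

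P2ry13 encodes a related ADP receptor. In sham libraries it was at 4.11, 3.14 and 3.38 CPM, and in BCP libraries at 9.54, 5.43 and 8.62 CPM. Replicate 2 of BCP was the lowest of its group and still above every sham library. The means were 3.54 ± 0.508 and 7.87 ± 2.16 CPM (SD, n = 3 each), on only 45 to 114 counts per library. The log2 fold change was 1.14 (SE 0.22, 95% confidence interval 0.69 to 1.6), or 2.21-fold, with an adjusted p of 0.000485. Without BCP replicate 1 it was 0.99 (adjusted p = 0.00288), just under 2-fold. The gene (ENSRNOG00000029756) is at chr2:149430854-149432106.

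P2ry12 and P2ry13 are 9492 bases apart, and both lie inside the span of Med12l, a gene for a subunit of the Mediator complex (chr2:149213134-149532292). Med12l itself fell by 0.20 on the log2 scale (adjusted p = 0.00511). The same span holds P2ry14, a receptor for UDP-sugars, which rose by 1.74 (adjusted p = 1.62e-06), and Gpr171, another receptor gene, which rose by 2.32 (adjusted p = 7.77e-05). Of the 4 tested neighbours 2 rose, 1 fell and 1 did not pass, with a median of 0.92. The kit marks strand, but the use of strand in counting is not stated, so reads of overlapping genes may have been shared between them.

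The wider set of ADP, ATP and adenosine signalling genes had 15 tested genes, of which 8 rose, 1 fell and 6 did not pass, with a median log2 fold change of 0.30. P2rx7 and P2rx4, ATP-gated channels of microglia, rose by log2 fold changes of 1.00 (adjusted p = 4.67e-08) and 1.03 (adjusted p = 5.36e-06). P2ry1, another ADP receptor, fell by 0.37 on the log2 scale, from 20.9 ± 1.08 to 16.2 ± 2.43 CPM (adjusted p = 0.0169). The 3 ADP receptors with a value therefore did not share a direction, since P2ry12 and P2ry13 rose. Entpd1, which encodes the ectoenzyme CD39, was listed at 0 counts in all libraries.

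Gpr34 encodes a receptor for lysophosphatidylserine. It was at 6.63, 6.70 and 7.29 CPM in sham and at 8.95, 5.28 and 9.31 CPM in BCP libraries. BCP replicates 1 and 3 were above all sham libraries and replicate 2 was below them all. The means were 6.87 ± 0.364 and 7.85 ± 2.23 CPM (SD, n = 3 each), and the log2 fold change of 0.18 (SE 0.19, 95% confidence interval -0.22 to 0.59, adjusted p = 0.536) did not pass. Without BCP replicate 2 it was 0.41 (adjusted p = 0.11). Gpr34 (ENSRNOG00000039759, chrX:10023489-10031167) lies within the span of Cask, a synaptic scaffold gene, whose log2 fold change was -0.13 (adjusted p = 0.261).

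Sall1 encodes the zinc finger factor that keeps microglial identity. Its level was 142, 139.5 and 128 CPM in sham and 167, 189 and 194 CPM in BCP libraries, the highest CPM of the 8 genes on 1865 to 2644 counts per library. The groups did not overlap. The means were 136 ± 7.74 and 183 ± 14.6 CPM (SD, n = 3 each). The rise was small and precise, with a log2 fold change of 0.43 (SE 0.059, 95% confidence interval 0.30 to 0.55), 1.34-fold, and an adjusted p of 2.35e-05. Sall1 (ENSRNOG00000013907) is at chr19:23389375-23405039.

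Of 12 other transcription factors known in microglia 8 rose, none fell and 4 did not pass, with a median log2 fold change of 0.68. Spi1, which encodes PU.1, rose by 2.42 (adjusted p = 6.91e-12) and Irf8 by 2.97 (adjusted p = 3.62e-11). The confidence interval of Sall1 ended well below both of these values. A further list held transforming growth factor beta and CSF1 receptor genes, from which the homeostatic programme takes its signals. Of its 16 tested rows 7 rose, 1 fell and 8 did not pass, with a median of 0.36. Tgfbr1 (ENSRNOG00000007036) rose by 1.07 (adjusted p = 2.64e-11), Tgfb1 by 1.76 (adjusted p = 7.35e-09) and Csf1 by 0.55 (adjusted p = 5.1e-06). Another row of Tgfbr1 (ENSRNOG00000050760), with at most 11 counts in any library, did not pass (adjusted p = 0.433). Itgb8, an integrin subunit that helps to activate the growth factor, fell by 0.29 (adjusted p = 0.000404).

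Slc2a5 encodes the fructose transporter GLUT5. It was at 12.9, 7.88 and 7.76 CPM in sham and at 15.5, 17.8 and 18.7 CPM in BCP libraries. Sham replicate 1 stood above the other sham libraries but below all BCP libraries. The means were 9.51 ± 2.92 and 17.3 ± 1.68 CPM (SD, n = 3 each), on 113 to 250 counts per library. The log2 fold change was 0.88 (SE 0.17, 95% confidence interval 0.50 to 1.25), 1.84-fold, with an adjusted p of 0.00148. Without sham replicate 1 it was 1.15 (adjusted p = 8.74e-06), past 2-fold. Slc2a5 (ENSRNOG00000017693) is at chr5:167141875-167174310.

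Tmem119, a membrane protein widely used to mark resident microglia, was at 11.96, 16.6 and 14.2 CPM in sham and at 21.1, 10.9 and 17.2 CPM in BCP libraries. BCP libraries included both the highest and the lowest of the 6 values. The means were 14.3 ± 2.32 and 16.4 ± 5.18 CPM (SD, n = 3 each), and the log2 fold change of 0.19 did not pass (SE 0.26, 95% confidence interval -0.44 to 0.81, adjusted p = 0.662). As a fold, that interval ran from 0.738 to 1.76, so neither a moderate decrease nor a moderate increase was outside it. Here BCP replicates 1 and 2 decided the value. Without replicate 2 the log2 fold change was 0.42 with an adjusted p of 0.0441, and without replicate 1 it was -0.025 with an adjusted p of 0.947. Tmem119 (ENSRNOG00000000700) is at chr12:48598647-48605704.

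Olfml3 encodes a secreted glycoprotein with an olfactomedin domain. Its level was 6.63, 6.49 and 7.63 CPM in sham and 6.84, 6.07 and 6.05 CPM in BCP libraries, and the groups overlapped. With means of 6.92 ± 0.621 and 6.32 ± 0.451 CPM (SD, n = 3 each), it was the only one of the 8 genes with a lower mean in BCP rats. The log2 fold change of -0.13 did not pass (SE 0.17, 95% confidence interval -0.48 to 0.21, adjusted p = 0.610). Olfml3 (ENSRNOG00000019211) is at chr2:206219419-206222248.

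**Figure D2:**
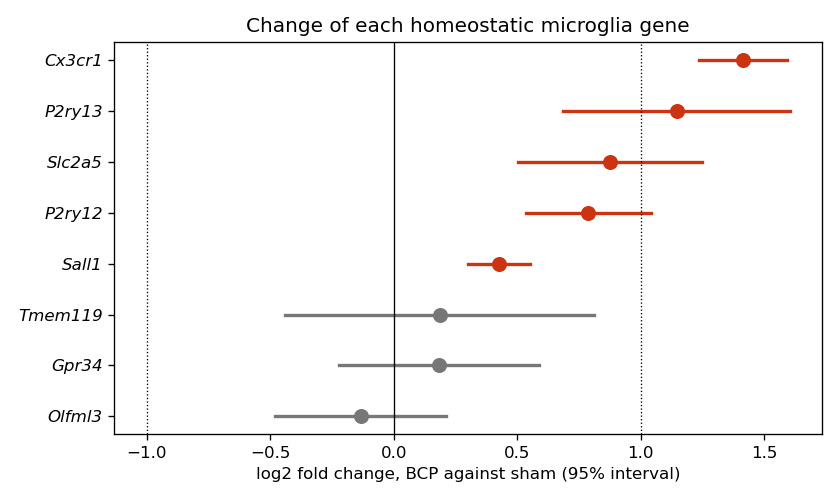
Log2 fold change, BCP against sham, of the 8 genes with 95% confidence intervals from edgeR. Red points passed an adjusted p of 0.05 and grey points did not, dotted lines mark 2-fold changes, and the values run from 1.42 for Cx3cr1 to -0.13 for Olfml3.

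The sizes of the changes differed among the 8 genes. The interval of Cx3cr1 (1.24 to 1.59) lay above the intervals of P2ry12, Sall1, Tmem119, Gpr34 and Olfml3, met that of Slc2a5 only at its lower end and overlapped that of P2ry13. The log2 ratio of Cx3cr1 to Olfml3 was 1.997 ± 0.208 in sham and 3.53 ± 0.249 in BCP libraries (SD, n = 3 each). The log2 ratio of Cx3cr1 to Sall1 was -2.28 ± 0.0726 in sham and -1.30 ± 0.0503 in BCP libraries (SD, n = 3 each). Against 6 of the 7 other genes the ratio of Cx3cr1 was higher in every BCP library than in any sham library, with an exact two-sided permutation p of 0.1 each, the smallest that 3 against 3 libraries can give. The same complete separation was found for the ratio of Cx3cr1 to 92.2% of all tested genes. P2ry12 and P2ry13 could not be ranked by their changes, since their log2 ratio differed by -0.30 with overlapping groups (exact permutation p = 0.3).

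Levels were compared between genes by the authors' FPKM, which are per length of the gene model. In sham rats the mean FPKM was 25.9 ± 1.43 for Sall1, 20.8 ± 1.57 for Cx3cr1 and 10.4 ± 1.67 for P2ry12 (SD, n = 3 each), and no libraries of these neighbours overlapped. Tmem119 (6.50 ± 1.08 FPKM) and Gpr34 (5.22 ± 0.284 FPKM) followed and overlapped each other. The lowest were Olfml3 (3.88 ± 0.352 FPKM), Slc2a5 (3.23 ± 0.977 FPKM) and P2ry13 (2.79 ± 0.389 FPKM), in which Slc2a5 overlapped both of the others.

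In BCP rats the order of FPKM had changed at the top and at the bottom. Cx3cr1 was first with 57.1 ± 6.49 FPKM, above Sall1 with 35.7 ± 3.11 and P2ry12 with 18.5 ± 1.80 FPKM (SD, n = 3 each), again with no overlap between neighbours. Tmem119 (7.66 ± 2.38), P2ry13 (6.36 ± 1.72), Gpr34 (6.12 ± 1.73) and Slc2a5 (6.06 ± 0.630 FPKM) overlapped one another and could not be ordered. Olfml3 was lowest with 3.64 ± 0.231 FPKM, below every library of those 4. The receptor Cx3cr1 was thus below Sall1 in each sham library and above it in each BCP library.

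The spread between libraries was not alike for the 8 genes. In BCP rats the coefficient of variation of CPM was 31.6% for Tmem119, 28.4% for Gpr34 and 27.5% for P2ry13, against 16.3%, 5.30% and 14.3% in sham rats. For Sall1 it was 5.68% in sham and 7.95% in BCP, and for Slc2a5 it was 30.7% in sham and 9.67% in BCP. BCP replicate 2 was the lowest BCP library for 4 of the genes, Tmem119, P2ry12, P2ry13 and Gpr34, where it was the lowest for 32.0% of all tested genes. BCP replicate 1 was the lowest for Cx3cr1, Sall1 and Slc2a5.

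**Figure D3:**
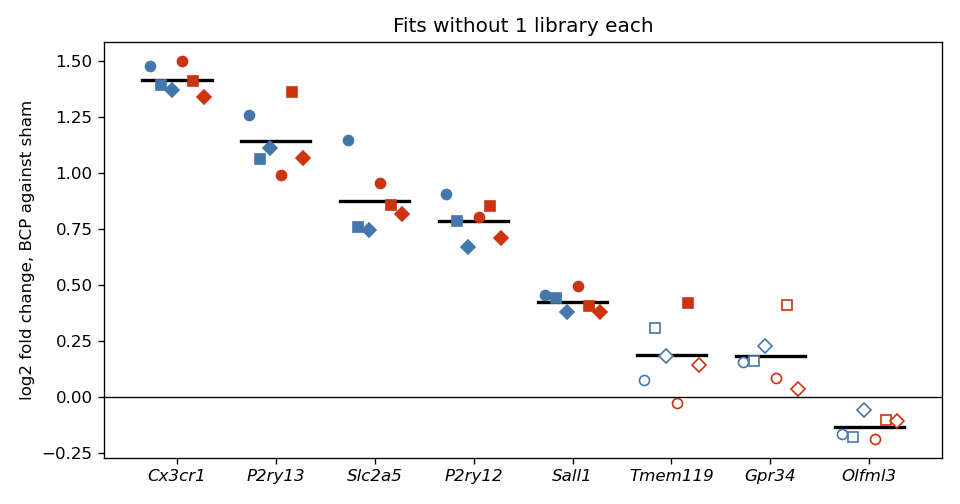
Log2 fold change of each gene after 1 of the 6 libraries was left out, with the colour giving the group of that library. Filled symbols passed an adjusted p of 0.05, open ones did not, and the black line is the value with all 6 libraries; only Tmem119 changed its call, between -0.025 and 0.42.

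Other homeostatic genes gave a mixed picture as well. Of 18 tested rows in that list 8 rose, 1 fell and 9 did not pass, and 4 rose more than 2-fold. The median log2 fold change was 0.54 beside 0.61 for the 8 genes. Tgfbr1 (ENSRNOG00000007036) rose from 62.5 ± 2.68 to 131 ± 6.77 CPM (SD, n = 3 each). Another row of Tgfbr1 (ENSRNOG00000050760), with at most 11 counts in any library, did not pass (log2 fold change 0.73, adjusted p = 0.433). Golm1, which encodes a Golgi membrane protein, rose by 0.78 (adjusted p = 1.08e-05). Bin1, a gene of membrane curvature that neurons and oligodendrocytes also use, fell by 0.25 (adjusted p = 0.000266).

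Genes that microglia share with all macrophages were counted in the same way. Of 17 such genes 16 rose, 15 of them more than 2-fold, with a median log2 fold change of 2.28. Cd68, a lysosomal glycoprotein of phagocytes, rose by 3.66 (adjusted p = 1.12e-12) and Fcer1g, an adaptor of Fc receptors, by 2.28 (adjusted p = 3.4e-12). The 1 gene that did not pass was Trem2, a lipid-sensing receptor, with 0.52 (adjusted p = 0.140). The summed CPM of that list ran from 229 to 317 in sham and from 1162 to 1451 in BCP libraries, whereas the summed CPM of the 8 homeostatic genes ran from 205 to 230 in sham and from 318 to 361 in BCP libraries.

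**Figure D4:**
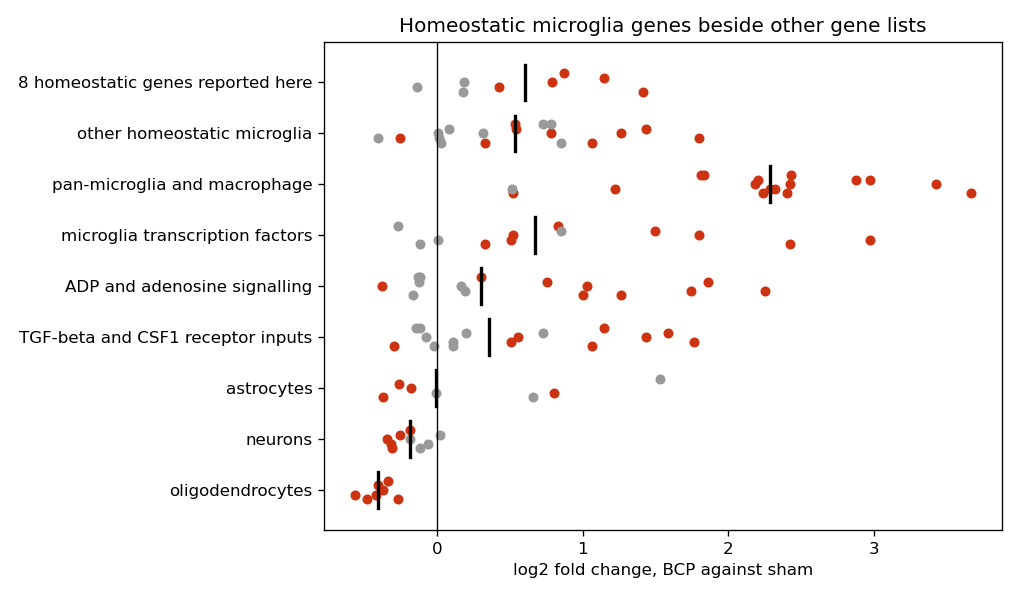
Log2 fold change, BCP against sham, of each tested gene row in 6 lists of microglial genes and their signals and in 3 lists of other cell types. Points in red passed an adjusted p of 0.05 and points in grey did not, and the black bar is the median of a list, at 0.61 for the 8 homeostatic genes and 2.28 for the genes shared with macrophages.

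Relative to the mean log2 CPM of those 17 genes, all 8 homeostatic genes were lower in every BCP library than in any sham library, each with an exact two-sided permutation p of 0.1, the smallest possible. As the 17 genes had risen so much, the same was true of 95.7% of all tested genes, so the count for the 8 is not a result about them. The size of the difference was least for Cx3cr1, from 1.25 ± 0.131 to 0.47 ± 0.0257, and greatest for Olfml3, from -0.75 ± 0.337 to -3.06 ± 0.243 (log2 units, SD, n = 3 each). Relative to the 18 rows of other homeostatic genes, Cx3cr1 alone was higher in every BCP library, with a difference of 0.85, which was so for 6.57% of all tested genes. Sall1 (-0.13) and Olfml3 (-0.68) were lower in every BCP library on that scale, as were 75.6% of all tested genes, and the other 5 overlapped. The 18 rows include the low row of Tgfbr1, which had 0 counts in sham replicate 3. Their mean log2 CPM was 4.39 in that library and 4.66 in sham replicates 1 and 2. The part of that row in these differences, such as the small one of Sall1, was not tested.

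A further list held genes of the disease-associated microglial state, which is known from degenerating and demyelinated tissue. Of 18 tested 11 rose, 2 fell and 5 did not pass, with a median of 0.59. Itgax and Clec7a, a complement receptor subunit and a fungal sugar receptor, rose by 6.09 (adjusted p = 2.74e-15) and 6.77 (adjusted p = 1.61e-14) on the log2 scale. Apoe, for which astrocytes are a major source, fell by 0.25 (adjusted p = 9.69e-05) and Lpl, lipoprotein lipase, fell by 0.56 (adjusted p = 0.0166). The homeostatic genes therefore rose or did not pass in the same libraries in which Itgax and Clec7a went from under 10 counts per library to at least 338.

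Markers of other cells also differed between the groups, and their part in the changes of the 8 was not tested. For monocytes and border macrophages, 4 of 8 tested genes rose and none fell (median 0.39), with a summed CPM of 167 to 178 in sham and 320 to 388 in BCP libraries. Among their defining markers Ccr2, the receptor of inflammatory monocytes, was at 0 counts in each sham library and 1 count in each BCP library, and Ms4a7 was at 0 counts in each sham library and at 3 to 8 in BCP libraries. Fn1, fibronectin, rose by 0.61 (adjusted p = 6.51e-08), and the myeloid genes S100a8 and Plac8 rose by 5.24 (adjusted p = 6.2e-05) and 5.01 (adjusted p = 0.00152). Most of the higher sum came from Plac8, with means of 3.12 CPM in sham and 98.9 CPM in BCP, and from Fn1, with 154 and 236 CPM. The border macrophage markers Lyve1 (-0.52), Cd163 (-0.27), F13a1 (-0.15) and Mrc1 (0.17, log2 fold changes) did not pass, with adjusted p from 0.241 to 0.764. Clec10a, also on that list, rose by 1.37 on the log2 scale (adjusted p = 0.0237), from a mean of 0.942 to 2.48 CPM. All 7 tested T cell genes rose (median 6.10), and their summed CPM ran from 0.878 to 1.98 in sham and from 26.4 to 37.8 in BCP libraries. Platelets also carry P2ry12. Of 7 platelet genes Itga2b, the only one tested, rose by 3.35 (adjusted p = 3.19e-08), from 5 to 11 counts in sham to between 66 and 96 counts in BCP libraries. Pf4 had 4 to 7 counts in sham and 7 to 15 in BCP libraries, Gp1ba, Gp1bb and Tubb1 had 1 to 11 counts in each library, and Gp9 and Ppbp were listed at 0 in all 6.

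Cell cycle genes rose in 7 of 7 (median 1.64), with a summed CPM of 45.2 to 79.0 in sham and 178 to 267 in BCP libraries. Of red blood cell genes 3 of 3 rose (median 1.32). Among 7 astrocyte genes 1 rose, Gfap by 0.80 (adjusted p = 5.27e-05), and 3 fell. Aqp4, which did not pass, had 28568 counts in BCP replicate 1 against 5037 and 4775 in replicates 2 and 3. Slc1a3, which did not pass either, had 1286 counts in sham replicate 1 against 3593 and 3767 in replicates 2 and 3. All 7 oligodendrocyte genes (median -0.41), 5 of 9 neuronal genes (median -0.18) and 1 of 4 genes of oligodendrocyte precursors fell. None of 6 endothelial and pericyte genes, none of 5 meningeal and fibroblast genes, none of 2 tested forebrain genes and not the 1 tested epithelial gene passed. Of 4 tested Hox genes of cord position only Hoxc10 passed and fell by 0.34 (adjusted p = 0.00217), and of 7 stress and early response genes 2 rose and 2 fell.

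Long noncoding RNAs near the 8 genes were read from the deposited lncRNA counts. Of 9 lncRNAs within 10 kb of a homeostatic gene, 4 were tested, 1 rose and none fell, where 1.57% of all tested lncRNAs rose and 0.395% fell. The one that rose, NONRATT029085.2 (chr8:128738685-128739865), lies 891 bases from Cx3cr1. It had 224, 258 and 212 counts in sham and 466, 631 and 669 counts in BCP libraries, with no overlap. Its log2 fold change of 1.48 (SE 0.13, 95% confidence interval 1.18 to 1.79, adjusted p = 0.00254) had an interval that overlapped that of Cx3cr1. NONRATT016424.2, 370 bases from P2ry13, had a log2 fold change of 0.65 (adjusted p = 0.269). NONRATT030858.2, which overlaps Gpr34, had -0.16 (adjusted p = 0.938), and MSTRG.14827.1, 7353 bases from Sall1, had 0.07 (adjusted p = 0.898). Reads of a gene and of a transcript beside it were not separated here.

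Genes whose pattern was most like each homeostatic gene were found by Pearson's r of log2 CPM over the 6 libraries among 10282 genes with a mean of at least 10 CPM, as a description, because the libraries share the group difference. Cx3cr1 was most like Fgd2 and Tyrobp (r = 0.9997 for both), and 806 genes had an r over 0.95 with it. Sall1 was most like Aspm (r = 0.999) and Snx2 (r = 0.998), with 625 genes over 0.95, and P2ry12 was most like Tbc1d20 (r = 0.997) and Thyn1 (r = 0.994), with 384. For Slc2a5 they were Me2 (r = 0.993) and Hmgn2 (r = 0.992), with 158 genes over 0.95, and for P2ry13 Taz (r = 0.997) and Mbtps2 (r = 0.996), with 66. The 3 genes that did not pass had fewer close companions: Olfml3 (Scrn3, r = 0.997, and Chgb, r = 0.988) had 38 genes over 0.95, Tmem119 (RGD1562608, r = 0.987, and Zbtb44, r = 0.971) and Gpr34 (Cyyr1, r = 0.982, and Dhrs7, r = 0.970) had 5 each. A high r does not mean a change of like size. Log2 fold changes were 0.11 for Taz and 0.22 for Mbtps2 beside 1.14 for P2ry13. They were 2.28 for Fgd2 and 2.20 for Tyrobp beside 1.42 for Cx3cr1.

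By the annotation in the deposited table, 6 of the 8 genes encode integral membrane components, all but Sall1 and Olfml3, against 25.7% of the 13335 annotated tested genes. P2ry12, P2ry13, Cx3cr1 and Gpr34 carry the term of G protein-coupled receptor activity, which 252 tested genes (1.89%) have. Within these 4 receptors, 3 rose and 1 did not pass, and within the other 4 genes, 2 rose and 2 did not pass.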

How the data were processed

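RNA-seq of 3 sham and 3 BCP libraries was grouped by the sample labels. Libraries were made with a stranded total RNA kit after removal of ribosomal RNA. Before deposit, the authors cleaned their reads in Seqtk and aligned these in HISAT2 2.0.4 to the Rnor_6.0 genome, and StringTie 1.3.0 gave their expression values. They deposited raw counts per gene and per lncRNA, and FPKM values per length of the gene model. The program that made the counts, its use of strand and its handling of reads with several locations are not given in the sources used here.

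The 8 genes and all lists were chosen with earlier results of these data known. Counts were fitted with edgeR 4.0.16 in R 4.3.3 over all genes that passed its filter by expression (TMM, robust quasi-likelihood test on the condition alone, Benjamini-Hochberg adjustment over 14908 genes), and lncRNAs were fitted separately over 12157. Confidence intervals and SEs come from that fit. CPM are the counts divided by the TMM-scaled library size, with between 11779485 and 15004290 counts per library. Levels relative to a list and ratios between genes used edgeR's log2 CPM and exact permutation tests over libraries. Genes from other lists were named by the smallest p-values in each direction (up to 3), or as defining markers, or for having at most 3 counts in a group. A few genes picked in this way are not reported here. Cx3cl1, Trem2, Cask and Clec10a were named after their values were seen, as were Itgax, Clec7a, Aqp4 and Slc1a3 for their counts. The scripts were tested on simulated counts. Alternatives were edgeR's other tests, DESeq2 1.42.0, limma 3.58.1 on log2(FPKM + 0.1), other filters and scalings, a replicate block and each library left out. RefSeq promoters of GRCr8 were used for letters only, and no coordinate was converted between builds.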

Additional observations from a re-analysis of the deposited data

How the results depend on the processing

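Whether each of the 8 genes rose was the same under every alternative test, filter and scaling tried, with 5 that rose and 0 that fell in each. The log2 fold change ranged over these settings from 1.38 to 1.46 for Cx3cr1, 1.11 to 1.18 for P2ry13, 0.84 to 0.92 for Slc2a5, 0.75 to 0.83 for P2ry12 and 0.39 to 0.47 for Sall1. When 1 library was left out, between 5 and 6 genes rose, the sixth being Tmem119 without BCP replicate 2. The log2 fold change of Tmem119 then ranged from -0.025 to 0.42, with -0.025 without BCP replicate 1. The count of genes past 2-fold ranged from 1 to 3, with 1 without BCP replicate 1. It was 1 in a test against a fold change of 2. Against the other homeostatic genes, 2 of the 8 were lower in every BCP library, not 8 as against the genes shared with macrophages. Of all tested genes, 75.6% were lower in this way against the other homeostatic genes and 95.7% against the genes shared with macrophages. No lncRNA that overlaps one of the 8 genes rose, a count of 0 with 1 tested. The split of all genes into 2352 higher and 1805 lower was 2134 and 2401 with upper-quartile scaling and 2673 and 1262 with library size only. It was 2452 and 943 with limma on FPKM. Same-numbered sham and BCP libraries had correlations of deviations from their group means of -0.11, 0.044 and -0.035. Those of differently numbered libraries ran from -0.12 to 0.14. No sign of pairing by replicate number was seen, but deviations within 3 libraries per group cannot settle whether samples were paired. With the replicate block 5 of the 8 genes rose, and of all genes 2217 rose and 1597 fell. Counts of 45 to 123 per library for P2ry13, Gpr34 and Olfml3 limit what could be detected for them, and 3 libraries per group cannot give an exact permutation p below 0.1.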
